A study of Mus musculus with 45 samples.

Results

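The genes examined here encode the nuclear subunits of the mitochondrial respiratory chain and of ATP synthase. They were chosen by annotated symbol, as genes named Nduf followed by a, b, c, s or v and a number, Sdha to Sdhd, names starting with Uqcr, names starting with Cox4 to Cox8, and names starting with Atp5. The rule found 81 of the 18193 genes on the arrays: 35 of complex I, 4 of complex II, 8 of complex III, 17 of complex IV and 17 of ATP synthase. Each gene was read from the probe set with the highest mean over all 45 arrays. A further 7 symbols that match the rule, among them Ndufa11 and Ndufs6, occur only in probe sets shared with another gene and were not used. Of the 81 genes, 8 are tissue isoforms: Cox6a2, Cox7a1 and Cox8b of heart and skeletal muscle, and Cox4i2, Ndufa4l2, Cox6b2, Cox7b2 and Cox8c of other tissues. The remaining 73 are called the general subunits below.

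The study followed male mouse embryonic stem cells (ESCs) of strain 129 through hanging-drop differentiation into embryoid bodies (EBs), aggregates in which derivatives of the germ layers form. It compared 3 lines, namely wild-type cells (WT), cells with a scrambled control (SCR) and cells whose label names silencing of Strip2 (KD), a gene of the STRIPAK phosphatase and kinase assemblies. Samples were taken before differentiation and on days 4, 8, 12 and 16 of EB culture, with 3 Affymetrix Mouse 430 2.0 arrays per line and stage. WT carries no construct and SCR the scrambled one. The labels give neither the construct nor whether a line is a single clone, and they do not state that arrays of a group are of separate cultures. The p-values therefore measure the spread between these arrays alone, which may be technical.

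Complexes I and II take electrons from NADH and from succinate, complex III passes them to cytochrome c, and complex IV (cytochrome c oxidase) reduces oxygen with them. Complexes I, III and IV move protons across the inner mitochondrial membrane, and ATP synthase makes ATP from their return. Most of the subunits are made in every cell, whereas a few small subunits of complex IV have a second gene used in striated muscle: Cox6a2 for Cox6a1, Cox7a1 for Cox7a2, and Cox8b for Cox8a. The muscle forms are known as late markers of the contractile state, and pluripotent cells are known to lean on glycolysis.

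The median log2 signal of an array was 5.02 to 5.18, and Pearson correlations of replicates over probe sets were 0.9888 to 0.9961. Strip2 at day 16 averaged 3.28 in the line labelled KD, 4.85 in SCR and 2.88 in WT, so the KD-labelled EBs were lower than SCR (limma adjusted p = 8.63e-09) but not than WT (difference 0.40, adjusted p = 0.0697). At day 12 they were lower than SCR (-0.92, adjusted p = 0.000102) and higher than WT (0.63, adjusted p = 0.00606). Strip2 was not called lower than SCR in ESCs (-0.13, adjusted p = 0.713), at day 4 (0.46) or at day 8 (0.04). These Strip2 means all lay below the array medians. Since Strip2 lay below WT at none of the 5 stages, the line is written KD-labelled throughout. In each line 1 array titled day 8 has a cell-type tag of ESCs, and its title was followed. Markers of other cell types moved with the groups. The mean of 10 pluripotency genes at day 16 was 10.99 in KD-labelled EBs, 5.52 in SCR and 6.67 in WT, against 11.16 to 11.52 in the ESCs of the 3 lines. The mean of 25 cardiac and skeletal muscle genes at day 16 spanned 8.15 to 8.89 in the SCR arrays, 6.0 to 6.89 in WT and 5.12 to 5.14 in the KD-labelled arrays. The mean of 9 hepatocyte and yolk sac genes at day 16 was 9.89 in SCR, 9.49 in WT and 6.70 in the KD-labelled line, and that of 6 brown adipose and thermogenic genes, Ppargc1a among them, 5.37, 4.75 and 3.66. The mean of 4 blood genes at day 8 was 11.26 in SCR, 11.70 in WT and 4.11 in the KD-labelled line. The part of these cell types in the differences below was not tested. In these bulk samples, fewer cells of a type and less RNA per cell cannot be told apart.

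The promoters of 3 genes for small subunits of complex IV are shown. Cox8b and Cox7a1 are both muscle isoforms, but KD minus SCR at day 16 was negative for Cox8b and positive for Cox7a1. Both were higher in SCR than in WT on that day. Cox6a1 is a general form that hardly differed between the lines at day 16. Sequences are the 250 bases before the annotated start, from RefSeq (GRCm38.p6), which held a promoter for 66 of the 81 genes. Cox8b lies at chr7:140900447-140900696 (minus strand), Cox7a1 at chr7:30183921-30184170 (plus strand) and Cox6a1, the general form of subunit 6a, at chr5:115348959-115349208 (minus strand). Capitals mark an E-box (CANNTG, read by basic helix-loop-helix factors) in Cox8b and Cox7a1, and the core letters of the NRF1 motif (CGCATGCG, read by a regulator of many genes for mitochondrial proteins) in Cox6a1.
Cox8b: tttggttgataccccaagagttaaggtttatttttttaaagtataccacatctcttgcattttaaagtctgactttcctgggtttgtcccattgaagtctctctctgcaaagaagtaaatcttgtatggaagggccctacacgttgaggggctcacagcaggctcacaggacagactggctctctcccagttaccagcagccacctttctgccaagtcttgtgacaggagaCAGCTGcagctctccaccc
Cox7a1: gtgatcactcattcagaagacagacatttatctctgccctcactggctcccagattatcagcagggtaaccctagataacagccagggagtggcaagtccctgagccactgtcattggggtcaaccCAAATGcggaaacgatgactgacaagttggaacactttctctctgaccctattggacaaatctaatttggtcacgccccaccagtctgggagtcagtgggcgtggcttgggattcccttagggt
Cox6a1: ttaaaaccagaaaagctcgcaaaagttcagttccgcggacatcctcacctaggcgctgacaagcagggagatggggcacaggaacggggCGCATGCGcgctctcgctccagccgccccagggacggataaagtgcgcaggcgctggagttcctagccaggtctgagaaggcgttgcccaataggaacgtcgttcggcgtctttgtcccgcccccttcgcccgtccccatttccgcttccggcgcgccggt

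Both strands of the 71 promoters of these genes were searched for 7 motifs, none of which contains another. The NRF1 letters occurred in 6 of them (8.45%, those of Ndufa8, Atp5k, Cox6a1, Atp5l, Atp5g2 and Atp5j), against 1.55% of all 32851 promoters of the same length. A longer form of the NRF1 letters, with a further base at either end, was searched first; it occurred in fewer promoters of both sets, among these genes in those of Atp5k, Cox6a1 and Atp5g2, and the core was put in its place after those matches had been seen. The ETS letters CCGGAAGT occurred in 3 (4.23%) against 2.88%, the ERR letters TCAAGGTCA in 1.41% against 0.387%, and the YY1 letters AAGATGGCG in 1.41% against 0.606%. An E-box occurred in 62.0% against 66.2%, so its presence in the promoters of Cox8b and Cox7a1 is the common case. The promoters of their general relatives Cox8a and Cox7a2, not printed, also held an E-box, and neither held the NRF1 letters. The MEF2 and CArG motifs, by which muscle genes are often read, occurred in no promoter of these genes and in 0.508% and 1.47% of all promoters. Among the muscle isoforms only Cox8b and Cox7a1 had a promoter there, so that of Cox6a2 was not searched. The median GC content was 56.4%, against 52.4% for all promoters. These matches describe letters in a window, and a window without a match says nothing of the factor.

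The muscle isoforms Cox6a2 and Cox8b rose late in SCR EBs and in neither of the other lines. Cox6a2, which replaces Cox6a1 in heart and skeletal muscle, stood at 5.92, 5.92 and 6.06 in the 3 SCR ESC arrays. It read 6.86, 8.18 and 8.11 at day 8, 9.07, 8.30 and 8.57 at day 12, and 8.66, 8.92 and 9.79 at day 16. The KD-labelled arrays read 6.14, 5.88 and 5.83 as ESCs and 6.31, 6.24 and 5.85 at day 16, and the WT arrays 6.16, 5.89 and 6.17 as ESCs and 6.41, 6.48 and 6.35 at day 16. From day 8 on, every SCR array of Cox6a2 lay above every KD-labelled and WT array of the same day. The rise from ESCs to day 16 was 3.16 in SCR (limma adjusted p = 1.16e-13), against 0.34 in WT (adjusted p = 0.224) and 0.18 in the KD-labelled line (adjusted p = 0.613), and the change differed between the KD-labelled line and SCR by -2.97.

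At day 16, KD-labelled EBs were lower than SCR in Cox6a2 by a log2 difference of -2.99 (SE 0.25, limma adjusted p = 5.95e-13), after -1.86 at day 8 and -2.85 at day 12. A second Cox6a2 probe set gave -3.10. Against WT the day 16 difference was -0.28 (adjusted p = 0.33), and SCR lay above WT by 2.71 (adjusted p = 2.17e-10). The large Cox6a2 difference thus stood against SCR and not against WT.

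Cox8b, the muscle form of subunit 8, a small membrane subunit of complex IV, was likewise highest in SCR at day 16. SCR arrays read 4.62, 4.75 and 4.59 as ESCs, 4.83, 5.40 and 5.81 at day 8, 7.20, 6.61 and 6.47 at day 12 and 7.20, 7.43 and 8.28 at day 16. At day 16 the WT arrays read 4.68, 5.05 and 4.74 and the KD-labelled arrays 4.75, 5.17 and 4.64, so the 3 SCR arrays of Cox8b stood apart from all 6 others. KD minus SCR was -0.62 at day 8 (SE 0.21, limma adjusted p = 0.0127) and grew to -2.01 at day 12 (adjusted p = 2.12e-10) and to -2.78 at day 16 (adjusted p = 4.75e-14), while KD minus WT at day 16 was 0.03 (adjusted p = 0.91). The day 8 call rests on 1 array: without the third SCR array of that day the Cox8b difference was -0.39 (adjusted p = 0.153).

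Cox7a1, the muscle and heart form of subunit 7a, went another way: it was highest in the KD-labelled line at every day of EB culture and fell in WT. KD-labelled arrays read 7.66, 7.31 and 7.78 as ESCs, 8.06, 8.15 and 8.24 at day 4, and 8.58, 8.72 and 8.57 at day 16. WT arrays went from 7.05, 7.12 and 7.0 as ESCs through 6.43, 6.48 and 6.45 at day 4 to 5.59, 5.34 and 5.25 at day 16. SCR arrays read 6.29, 6.42 and 6.86 as ESCs, 5.91, 7.37 and 7.40 at day 8, and 6.25, 6.69 and 7.56 at day 16. At day 16 the 3 lines did not overlap in Cox7a1, with WT lowest, SCR between and KD-labelled highest.

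On the log2 scale, Cox7a1 fell by 1.66 from ESCs to day 16 in WT (limma adjusted p = 2.55e-06), rose by 1.04 in the KD-labelled line (adjusted p = 0.00262) and differed by 0.31 in SCR (adjusted p = 0.313). KD minus SCR was 1.06 in ESCs (SE 0.28, adjusted p = 0.00375), 2.17 at day 4 and 1.79 at day 16 (adjusted p = 7.61e-07). KD minus WT was 0.53 in ESCs (adjusted p = 0.208), 1.70 at day 4 and 3.23 at day 16 (adjusted p = 1.82e-12). Both contrasts use the same KD-labelled arrays. The change to day 16 differed from that in WT by 2.70 (adjusted p = 4.77e-07) and from that in SCR by 0.73 (adjusted p = 0.125), the latter becoming 1.09 (adjusted p = 0.018) without the third SCR array of day 16.

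**Figure D1:**
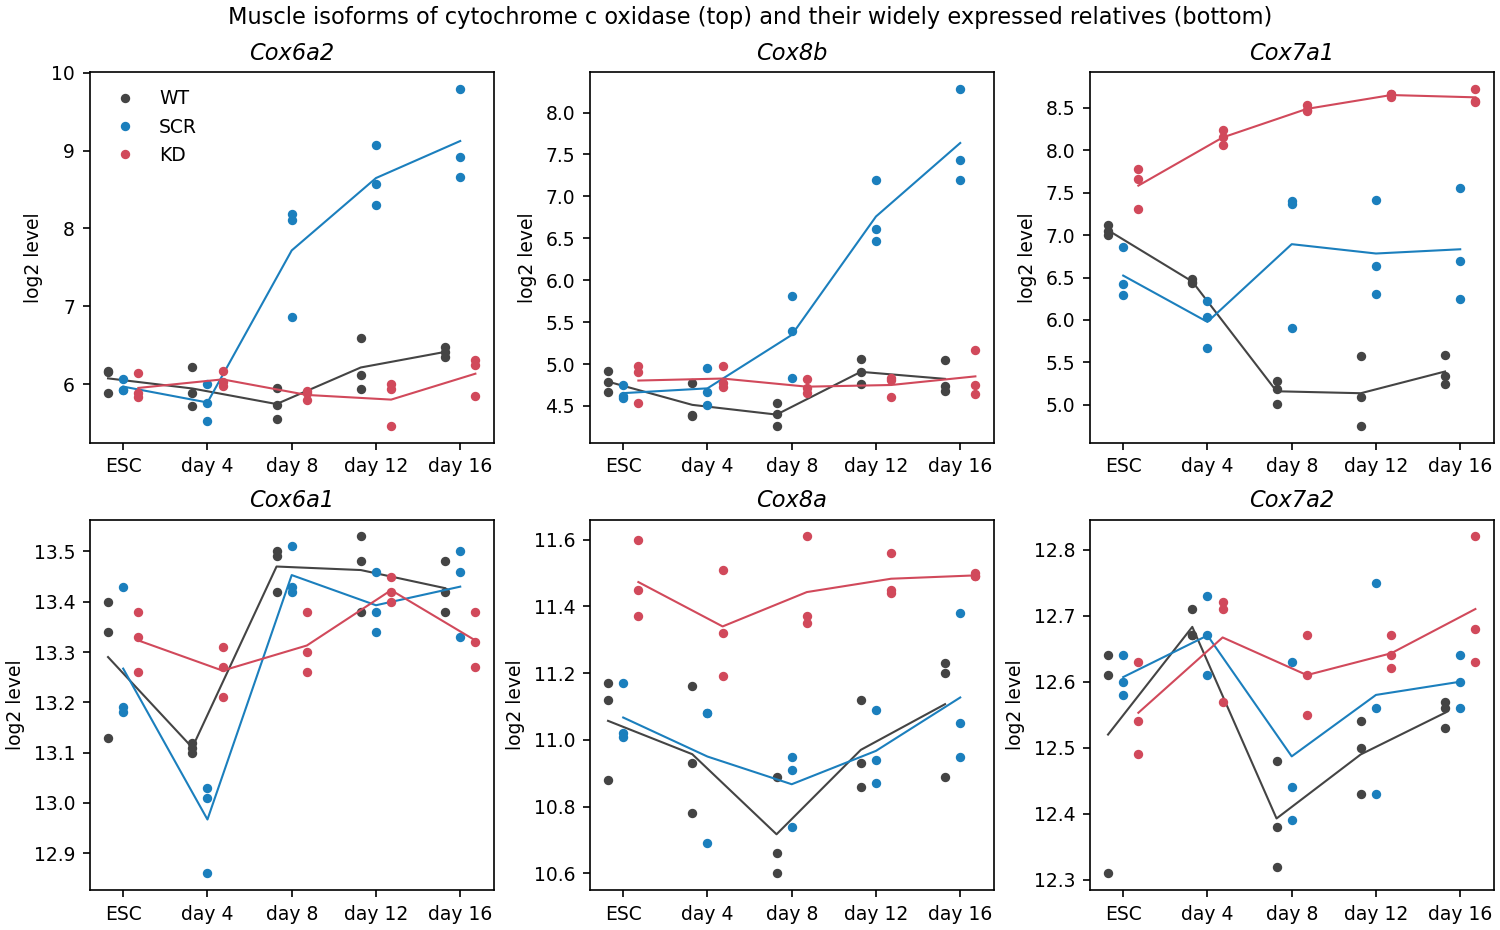
Log2 level by stage (ESC and EB days) of the muscle isoforms Cox6a2, Cox8b and Cox7a1 (upper panels) and of their general relatives Cox6a1, Cox8a and Cox7a2 (lower panels); points are single arrays, lines join the means of 3 arrays per line and stage, and each panel has its own y axis. Cox6a2 and Cox8b climb in SCR only, to day 16 arrays of 8.66 to 9.79 and 7.20 to 8.28, while Cox7a1 is highest in the KD-labelled line, at 8.57 to 8.72.

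The general relatives of these isoforms moved far less on the log2 scale. They are brighter, with mean levels of 13.33 for Cox6a1, 12.58 for Cox7a2 and 11.13 for Cox8a, where the highest value on any array was 14.26. The part of level in this was not tested. Cox6a1 was still called as changed with stage in WT (moderated F test, adjusted p = 0.000192) and in SCR (adjusted p = 1.76e-06). Cox6a1 arrays at day 16 read 13.32, 13.27 and 13.38 in the KD-labelled line, 13.33, 13.50 and 13.46 in SCR, and 13.48, 13.42 and 13.38 in WT, and KD minus SCR was -0.11 (limma adjusted p = 0.216). Cox7a2 differed by 0.11 (adjusted p = 0.244). Cox8a was higher in KD-labelled EBs, at 11.50, 11.49 and 11.49 against 11.05, 11.38 and 10.95 in SCR and 11.20, 10.89 and 11.23 in WT, by 0.37 against SCR (adjusted p = 0.00975) and 0.39 against WT (adjusted p = 0.00745). The KD-labelled arrays of Cox8a lay above all SCR and WT arrays of that day, but the difference was already present in ESCs, where KD minus SCR was 0.41, and it lost its call against SCR when the arrays were normalized by cyclic loess (0.25, adjusted p = 0.104).

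The levels of markers of the contractile apparatus moved with Cox6a2 and Cox8b. Over the 45 arrays, the Pearson correlation with the mean of the 25 muscle genes was 0.926 for Cox6a2, 0.827 for Cox8b and -0.217 for Cox7a1, given as a description, since arrays share line and day. Between the controls, Cox7a1 was higher in SCR than in WT by 1.73 at day 8, 1.65 at day 12 and 1.44 at day 16. The mean of the muscle genes was also higher in SCR on those days. Of the 25 muscle genes, 20 were lower and 1 higher in KD-labelled than in SCR EBs at day 16, beside 26.8% and 39.8% of all genes. Cardiac troponin T (Tnnt2) averaged 12.17 in SCR, 9.59 in WT and 3.74 in the KD-labelled line, and alpha cardiac myosin (Myh6) 12.08, 8.49 and 4.70. The skeletal determination factor Myod1 averaged 3.54, 3.48 and 3.74 and myogenin (Myog) 3.85, 4.23 and 3.53 in the same order. Over the WT course 15 of the 25 muscle genes rose and 6 fell (28.1% and 38.1% of all genes), while the changes of Cox6a2 (0.34) and Cox8b (0.03) did not pass the test. The part of muscle cells in the isoform differences was not tested.

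Within SCR, some arrays were extreme for the isoforms and for the muscle list alike. At day 16 the third SCR array was the highest of its group for Cox6a2, Cox8b, Cox7a1 and the muscle list, and at day 8 the first was the lowest for all 4. The highest array at day 8 was the second for Cox6a2 and the muscle list but the third for Cox8b and Cox7a1. At day 12 the lowest was the second for Cox6a2 and the muscle list but the third for Cox8b.

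**Figure D2:**
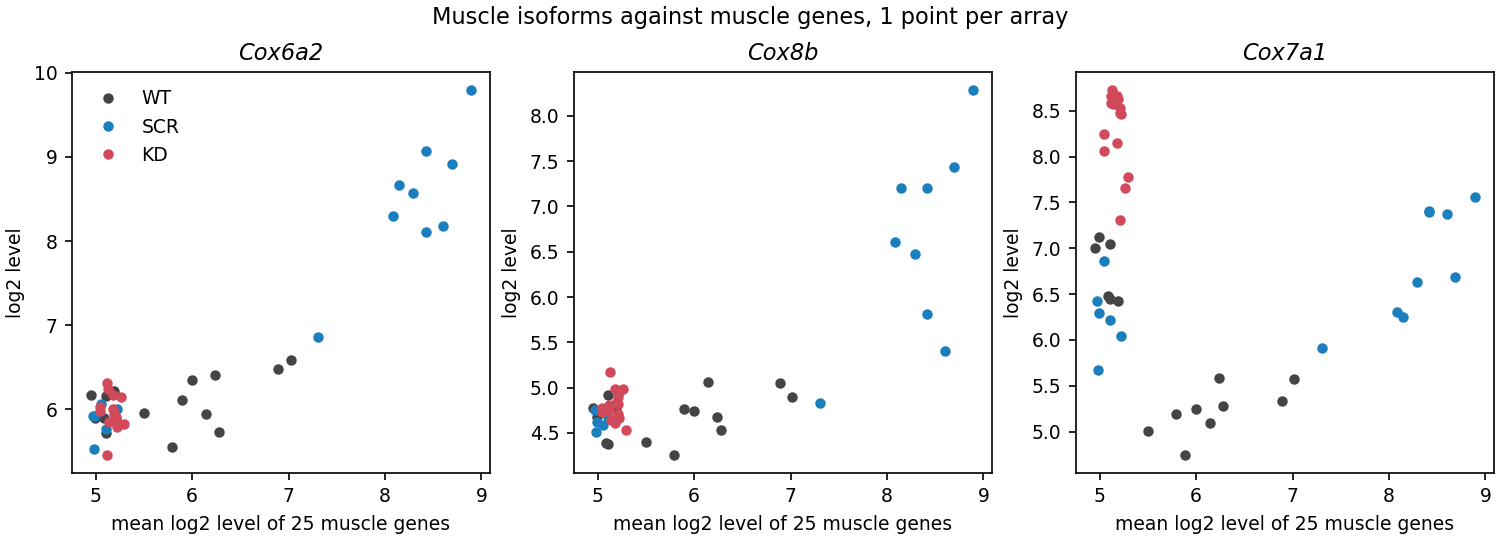
Log2 level of Cox6a2, Cox8b and Cox7a1 (y axes) against the mean log2 level of 25 muscle genes (x axis) in each of the 45 arrays, marked by line. Over all arrays together, Pearson r with the muscle genes is 0.926 for Cox6a2, 0.827 for Cox8b and -0.217 for Cox7a1. Between the controls at day 16, Cox7a1 and the mean of the muscle genes were both higher in SCR than in WT.

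By likeness over the 15 group means, the genes nearest to Cox6a2 among all genes were Tnni3 (Pearson r 0.986, cardiac troponin I), Tmem182 (0.985), Trdn (0.98, triadin of the calcium release unit), Csrp3 (0.98, muscle LIM protein) and Mybphl (0.977). Those nearest to Cox8b were Myoz2 (0.98), Trdn (0.971), Cmya5 (0.969), Tmem182 (0.961) and Cox6a2 (0.957). For Cox7a1 the list held no gene of the contractile apparatus. Its nearest genes were Kyat3 (0.95), Ldhb (0.94), Pgk1 (0.931), Aldoa (0.92) and Fmc1 (0.919), of which Pgk1, Aldoa and Ldhb encode enzymes of glycolysis and lactate conversion and Fmc1 an assembly factor of ATP synthase.

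Among the isoforms of other tissues, Cox6b2, the testis form of subunit 6b, crossed over between the lines. KD-labelled arrays read 6.98, 7.12 and 7.64 as ESCs and 8.30, 8.40 and 8.53 at day 16, whereas day 16 arrays read 7.62, 7.54 and 7.14 in SCR and 7.90, 7.40 and 7.89 in WT. Cox6b2 started lower in the KD-labelled ESCs than in SCR, by -0.80 (limma adjusted p = 0.00379) and higher at day 16 by 0.98 (adjusted p = 0.000126), and against WT the differences were -0.89 (adjusted p = 0.00215) and 0.68 (adjusted p = 0.00574). It rose by 1.16 over the KD-labelled course (adjusted p = 2.5e-05) and fell by 0.62 over the SCR course (adjusted p = 0.00968).

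Cox7b2, a testis-enriched form of subunit 7b, fell in all 3 lines. Its arrays went from 4.73, 4.31 and 4.47 to 2.85, 3.02 and 2.71 in WT, a change of -1.64 (limma adjusted p = 7.1e-13), and the changes were -1.51 in SCR and -1.27 in the KD-labelled line. The Cox7b2 difference from SCR at day 16 was 0.41 (adjusted p = 0.00959). Of Cox8c, Cox4i2 (the lung form of subunit 4) and Ndufa4l2 (a hypoxia-responsive relative of Ndufa4), all 3 were higher in KD-labelled than in SCR EBs at day 16, by 0.48 (adjusted p = 0.000792), 0.39 (adjusted p = 0.0195) and 0.54 (adjusted p = 0.00162). The day 16 calls of Cox4i2 (0.24) and Cox7b2 (0.26) against SCR were lost after cyclic loess. The mean levels of Cox7b2 (3.30) and Cox4i2 (4.90) over all arrays lay below the array medians, so their values may not stand for the genes.

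Few differences of the set from SCR at day 16 reached 2-fold, and the share of calls lay near that of all genes. In that comparison, 16 of the 81 genes were higher and 35 lower in the KD-labelled EBs than in SCR (limma adjusted p under 0.05). Together that is 63.0% of the set, beside 66.6% of all 18193 genes, of which 39.8% were higher and 26.8% lower. The split depends on scaling, with 19 higher and 24 lower where each array was centred by its median, and 10 and 43 where cyclic loess was used. The median difference of the 81 genes was -0.11, while that of all genes was 0.17 as deposited, 0.25 after centring and 0.05 after loess. Relative to the median of all genes, the set stood at -0.27 as deposited and at -0.32 after loess. Only 2 of the 81 genes, Cox7a1 and Atp5g2, were higher by 2-fold or more, and 2, Cox6a2 and Cox8b, lower, beside 10.4% and 13% of all genes. The set is brighter than most genes, with a median mean level of 11.13 beside 6.21 for all genes. Of the 81 genes, 76 lay above the latter, so the shares here and below set genes of unlike level side by side. The part of level in them was not tested.

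Against WT at day 16, 15 genes of the set were higher and 25 lower, 49.4% of the set beside 60.8% of all genes called (34.6% higher and 26.1% lower), with 19 and 22 after centring and 12 and 32 after loess. Relative to all genes the median stood at -0.14 as deposited and -0.13 after loess. Counts against SCR grew with the days, from 15 higher and 4 lower in ESCs (23.6% of all genes called) through 23 and 9 at day 4 (42.4%), 16 and 19 at day 8 (52.8%; 7 and 32 after loess) to 14 and 28 at day 12 (55.6%; 18 and 21 after centring). Against WT they were 12 and 6 in ESCs (18.4%), 17 and 4 at day 4 (39.1%), 19 and 14 at day 8 (49.9%; 14 and 20 after loess) and 14 and 19 at day 12 (50.7%; 10 and 31 after loess). In ESCs and at day 4 more subunits were called higher than lower in the KD-labelled line, and at days 12 and 16 more were called lower. The calls of all genes were split by direction only at day 16, so the lean at earlier stages has no such share beside it. The median difference of all genes from SCR was 0.03 in ESCs, 0.03 at day 4 and 0.10 at day 12. Fewer subunits were called in ESCs when only the compared groups were fitted.

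The controls differed little between themselves. SCR minus WT called 0 higher and 4 lower in ESCs (10.2% of all genes), 0 and 2 at day 4 (1.93%), 3 and 2 at day 8 (6.99%; 3 and 1 after loess), 5 and 1 at day 12 (14.7%), and 3 and 0 at day 16 (8.11%). The 3 at day 16 were the muscle isoforms Cox6a2, Cox8b and Cox7a1. None of the 73 general subunits was called by limma between SCR and WT at day 16, and 3 of them had an unadjusted p under 0.05, beside 18.2% of all genes. The 4 subunits lower in SCR ESCs were Ndufa6 (-0.65), Atp5g2 (-0.59), Ndufb9 (-0.51) and Cox6c (-0.39). In KD-labelled minus SCR ESCs, which share the SCR arrays, the same genes gave 0.66, 0.46, 0.87 and 0.63. Cox6c is named here, and Uqcrfs1 and Cox7c below, after their values were seen.

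**Figure D3:**
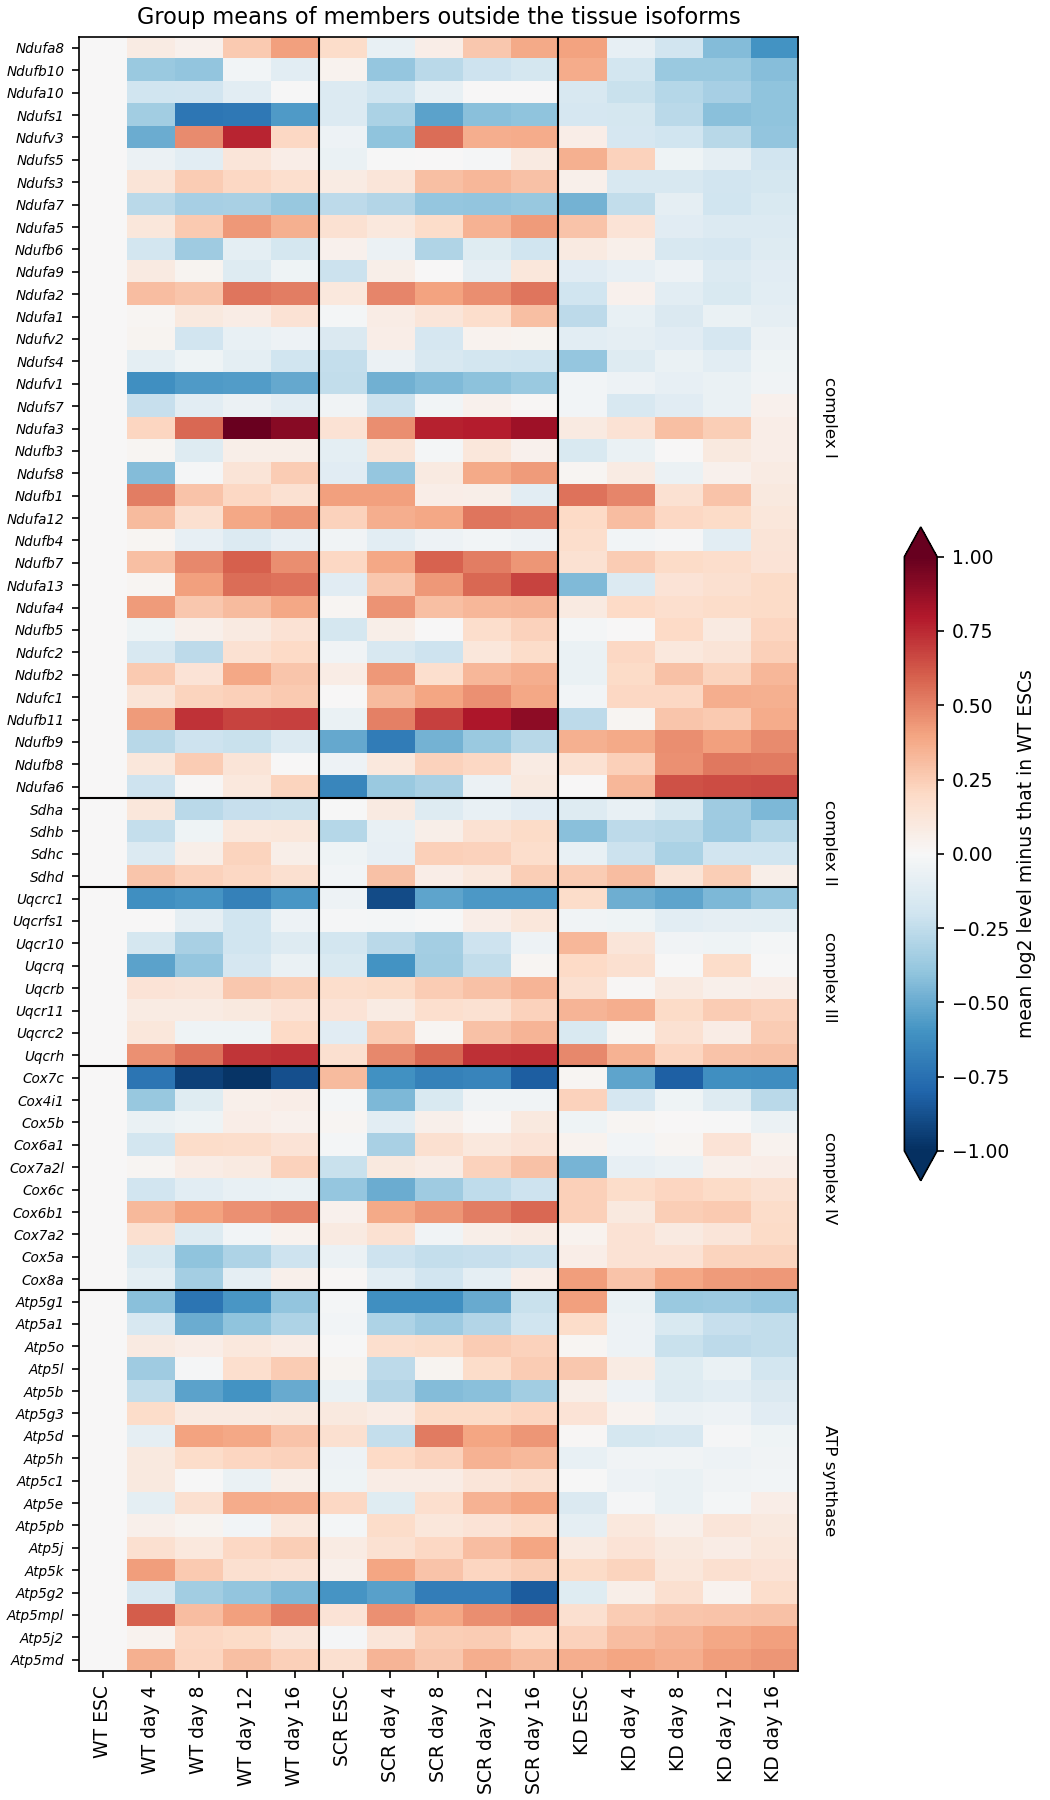
Mean log2 level of each of the 73 general subunits (rows, by complex) in each of the 15 line and stage groups (columns), relative to its WT ESC mean; the colour scale stops at 1 in either direction. Most tiles are pale, and the rows of Uqcrh, Ndufa3 and Ndufb11 show the WT and SCR rises described in the text.

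Over the WT course some general subunits rose and some fell, none by 2-fold in the deposited values, although the day 16 rise of Ndufa3, 0.91 there, came to 1.03 after cyclic loess. From ESCs to day 16, 22 genes of the set rose and 15 fell in WT (45.7% of the set, 66.2% of all genes called, 28.1% up and 38.1% down), but the split turned to 12 and 19 after centring and widened to 38 and 10 after loess. Median changes were 0.07 for the set and -0.15 for all genes, a distance of 0.22 as deposited and 0.21 after loess. In SCR 35 rose and 10 fell (55.6% of the set, 71.8% of all genes called, 29.1% up and 42.7% down; 21 and 18 after centring, 55 and 6 after loess), with the set 0.38 above the median of all genes. In the KD-labelled line 13 rose and 19 fell (39.5% of the set, 38.1% of all genes called, 19.1% in either direction; 18 and 17 after loess), with the set 0.03 from that median. A moderated F test over the 5 stages called 49 genes of the set in WT, 54 in SCR and 28 in the KD-labelled line, beside 76.9%, 80.5% and 44.9% of all genes.

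The mean level of the 73 general subunits went from 11.15 ± 0.04 (SD, n = 3) in WT ESCs to 11.23 ± 0.03 at day 16. In SCR it went from 11.12 ± 0.05 to 11.28 ± 0.05, and in the KD-labelled line it was 11.21 ± 0.03 at first and 11.16 ± 0.05 at day 16. The change to day 16 itself differed between the KD-labelled line and SCR for 28 genes of the set, 3 with a larger and 25 with a smaller value in the KD-labelled line (34.6% of the set, 47.7% of all genes; 6 and 18 after centring, 1 and 41 after loess). Against WT it differed for 30, 9 larger and 21 smaller (45.3% of all genes).

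Complex I, the NADH dehydrogenase, held the largest deficit of a general subunit in KD-labelled EBs, that of Ndufa8, and also clear excesses. Of its 35 genes, 6 were higher and 16 lower in the KD-labelled EBs of day 16 than in SCR, with a median of -0.09 (7 and 12 after centring, 4 and 17 after loess). Those calls are 62.9% of complex I, beside the 66.6% of all genes (39.8% higher and 26.8% lower); the share was 75% in complex II, 37.5% in complex III, 76.5% in complex IV and 58.8% in ATP synthase. Against WT 5 were higher and 14 lower. Ndufb9, a membrane-arm subunit, read 12.38, 12.34 and 12.26 in KD-labelled EBs, 11.48, 11.61 and 11.64 in SCR and 11.70, 11.68 and 11.77 in WT, with no overlap. KD minus SCR was 0.75 (SE 0.10, limma adjusted p = 4.77e-08) and KD minus WT 0.61 (adjusted p = 2.66e-06). As ESCs the KD-labelled arrays read 12.21, 12.16 and 12.25, the SCR arrays 11.19, 11.29 and 11.54 and the WT arrays 11.84, 11.60 and 12.12. The Ndufb9 difference in ESCs was 0.87 against SCR and 0.35 against WT (adjusted p = 0.0105), where the third WT array came close to the KD-labelled ones.

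Ndufa6, an accessory subunit of the matrix side, read 11.65, 11.66 and 11.62 in KD-labelled EBs against 11.10, 11.02 and 11.12 in SCR and 11.19, 11.14 and 11.29 in WT, differences of 0.56 (limma adjusted p = 4.07e-06) and 0.44 (adjusted p = 0.000188). Ndufa8, an accessory subunit of the intermembrane side, was lower, at 9.58, 9.35 and 9.54 against 10.35, 10.81 and 10.25 in SCR and 10.56, 10.34 and 10.59 in WT. Its differences were -0.98 (SE 0.15, adjusted p = 1.03e-06) and -1.01 (adjusted p = 7.3e-07). Ndufa8 fell by 1.0 over the KD-labelled course (adjusted p = 1.9e-06), while it rose by 0.41 in WT.

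Ndufa3, a small membrane-arm subunit, rose in both controls and not in the KD-labelled line. WT arrays went from 10.91, 10.64 and 10.91 to 11.68, 11.59 and 11.91, a rise of 0.91 (limma adjusted p = 2.5e-06), and SCR rose by 0.71. The change in the KD-labelled line was -0.03 (adjusted p = 0.905), ending at 10.89, 11.05 and 10.71. KD minus SCR at day 16 was -0.79 (adjusted p = 2.56e-05), and 2 other Ndufa3 probe sets gave -0.81 and, for the dimmest, 0.01. Ndufb11, also of the membrane arm, rose in all 3 lines, by 0.68 in WT (adjusted p = 1.08e-07), 0.97 in SCR and 0.63 in the KD-labelled line, and KD minus SCR at day 16 was -0.52 (adjusted p = 1.31e-05). The other 13 genes of complex I called lower at day 16 ran from -0.76 to -0.22, and the other 4 called higher from 0.23 to 0.54.

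The 2 largest falls of complex I over the WT course were those of Ndufs1 and Ndufv1, both core subunits that carry redox centres. Ndufs1, which holds iron-sulphur clusters, fell from 10.94, 10.94 and 11.05 to 10.55, 10.34 and 10.35 in WT (-0.56, limma adjusted p = 1.57e-07), and it fell in SCR (-0.27) and the KD-labelled line (-0.23) too. Ndufv1, the flavin-binding subunit that accepts the electrons of NADH, fell by 0.51 in WT (adjusted p = 0.000139), against -0.13 in SCR (adjusted p = 0.303) and -0.00 in the KD-labelled line (adjusted p = 0.987). At day 16 Ndufv1 was higher in KD-labelled EBs, at 11.11, 11.12 and 11.18, than in SCR, at 10.73, 10.88 and 10.79, by 0.34 (adjusted p = 0.00821).

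Complex II, the succinate dehydrogenase of the citric acid cycle, leaned lower in KD-labelled EBs, with 3 of its 4 genes called lower against SCR at day 16 and a median of -0.36 (2 after centring, 4 after loess), and 2 called lower against WT. Sdhb, the iron-sulphur subunit, read 10.72, 10.93 and 10.72 against 11.28, 11.25 and 11.28 in SCR and 11.22, 11.12 and 11.24 in WT, and the differences were -0.48 (limma adjusted p = 0.000256) and -0.40 (adjusted p = 0.00186). Sdhc, a membrane anchor, differed by -0.38 from SCR (adjusted p = 0.0211), a call lost after centring (-0.30), and by -0.26 from WT (adjusted p = 0.114). Sdhd, the other anchor, differed by -0.19 (adjusted p = 0.0684). Sdha, the flavoprotein subunit, gave -0.34 (adjusted p = 0.000745), but its other 3 probe sets gave -0.05, 0.34 and 0.18, so the Sdha difference depends on the probe set.

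In complex III, which passes electrons from ubiquinol to cytochrome c, 3 of 8 genes were lower and 0 higher in KD-labelled than in SCR EBs at day 16, with a median of -0.06 (1 lower after centring, 3 after loess), and against WT 1 was lower. Uqcrh, the hinge subunit beside cytochrome c1, stood out over time. It went from 11.56, 11.69 and 11.41 to 12.28, 12.27 and 12.29 in WT (0.73, limma adjusted p = 1.75e-08) and rose by 0.57 in SCR. In the KD-labelled line it read 12.05, 11.96 and 12.09 as ESCs and 11.84, 11.95 and 11.74 at day 16, a change of -0.19 (adjusted p = 0.11). KD-labelled arrays of Uqcrh thus lay above both controls as ESCs and below both at day 16, where KD minus SCR was -0.45 (adjusted p = 8.59e-05) and KD minus WT -0.44 (adjusted p = 0.000132).

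Uqcrb, which helps form the ubiquinone site, differed from SCR by -0.27 at day 16 (limma adjusted p = 0.0154), a call lost after centring (-0.19), and rose by 0.24 in WT (adjusted p = 0.0285). Uqcrc1, a core subunit of the matrix side, fell alike in the 3 lines, by -0.58 in WT (adjusted p = 0.000298), -0.53 in SCR and -0.58 in the KD-labelled line, and KD minus SCR at day 16 was 0.18 (adjusted p = 0.234). The third gene called lower was Uqcrfs1, the Rieske iron-sulphur protein, at -0.21.

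In complex IV, where electrons meet oxygen, 8 of 17 genes were higher and 5 lower in the KD-labelled EBs of day 16 than in SCR, with a median of 0.20 (9 and 3 after centring, 5 and 7 after loess). Of the 8 higher genes 5 were tissue isoforms, and of the 5 lower genes 2. Against WT 7 were higher and 2 lower. Cox6b1, the general form of subunit 6b on the cytochrome c side, rose in WT from 12.35, 12.24 and 12.39 to 12.79, 12.77 and 12.89 (0.49, limma adjusted p = 4.82e-05) and in SCR by 0.53, against -0.05 in the KD-labelled line. It was lower in KD-labelled EBs by -0.39 against SCR (adjusted p = 0.000804), while its testis form Cox6b2 was higher. Cox4i1, the general form of the largest nuclear-encoded subunit, read 12.24, 12.02 and 12.23 in KD-labelled EBs, against 12.35, 12.52 and 12.33 in SCR and 12.58, 12.44 and 12.49 in WT. Its differences were -0.24 (adjusted p = 0.0204, lost after centring) and -0.34 (adjusted p = 0.00141).

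Cox7a2l, which takes part in joining complexes III and IV into supercomplexes, differed from SCR by -0.23 (limma adjusted p = 0.0321, lost after centring), and rose by 0.23 in WT (adjusted p = 0.0349). Cox7c fell in all 3 lines, by -0.88 in WT, -1.15 in SCR and -0.64 in the KD-labelled line, where the day 16 arrays spread widely, at 7.15, 8.24 and 6.88. Its probe set had a mean level of 7.48, the lowest among the general subunits of complex IV, so these values may not stand for the gene. Ndufa4, named for complex I but regarded as a subunit of complex IV, differed from SCR by -0.15 at day 16 (adjusted p = 0.193).

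In ATP synthase, 2 of 17 genes were higher and 8 lower in the KD-labelled EBs of day 16 than in SCR, with a median of -0.18 (3 and 6 after centring, 1 and 12 after loess), and against WT 3 were higher and 6 lower. The 3 genes for subunit c, the proton-carrying ring, encode the same mature protein and went separate ways. Atp5g2 read 12.18, 12.41 and 12.09 in KD-labelled EBs, 11.05, 11.49 and 11.12 in SCR and 11.55, 11.43 and 11.83 in WT, with KD minus SCR 1.01 (SE 0.15, limma adjusted p = 4.32e-07) and KD minus WT 0.62 (adjusted p = 0.000587). Its other probe sets gave 0.24 and 1.77. Atp5g3 was lower, at 12.76, 12.61 and 12.72 against 12.92, 13.06 and 13.10 in SCR and 12.93, 12.90 and 12.89 in WT, by -0.33 (adjusted p = 2.85e-05) and -0.21 (adjusted p = 0.00497).

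Atp5g1 fell over the course, in WT from 10.98, 11.07 and 11.11 to 10.75, 10.58 and 10.64 (-0.40, limma adjusted p = 0.000636) and in the KD-labelled line from 11.50, 11.42 and 11.48 to 10.79, 10.63 and 10.58 (-0.80, adjusted p = 2.84e-08). KD-labelled ESCs of Atp5g1 lay above both controls, and at day 16 KD minus SCR was -0.16 (adjusted p = 0.147). Atp5d, a subunit of the central stalk, was lower by -0.49 against SCR (adjusted p = 0.000267) and -0.33 against WT (adjusted p = 0.0114), and a second probe set gave -0.42. Atp5o, the subunit joining the stator to the catalytic head, was lower by -0.47 (adjusted p = 3.87e-06), but its other probe set gave 0.16, and the mean of both lost the call (-0.16, adjusted p = 0.295). Atp5j2 was the other gene called higher (0.22, adjusted p = 0.0125), a call lost after loess. The other 5 genes called lower ran from -0.44 to -0.18.

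Over the WT course the small ATP synthase subunits Atp5mpl (0.50, limma adjusted p = 3.1e-05) and Atp5e (0.36, adjusted p = 0.000735) rose, while the catalytic beta subunit Atp5b fell from 12.64, 12.60 and 12.85 to 12.19, 12.10 and 12.29 (-0.50, adjusted p = 4.49e-05). Atp5b at day 16 was higher in the KD-labelled line than in WT by 0.36 (adjusted p = 0.00268), and KD minus SCR was 0.20 (adjusted p = 0.0734).

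**Figure D4:**
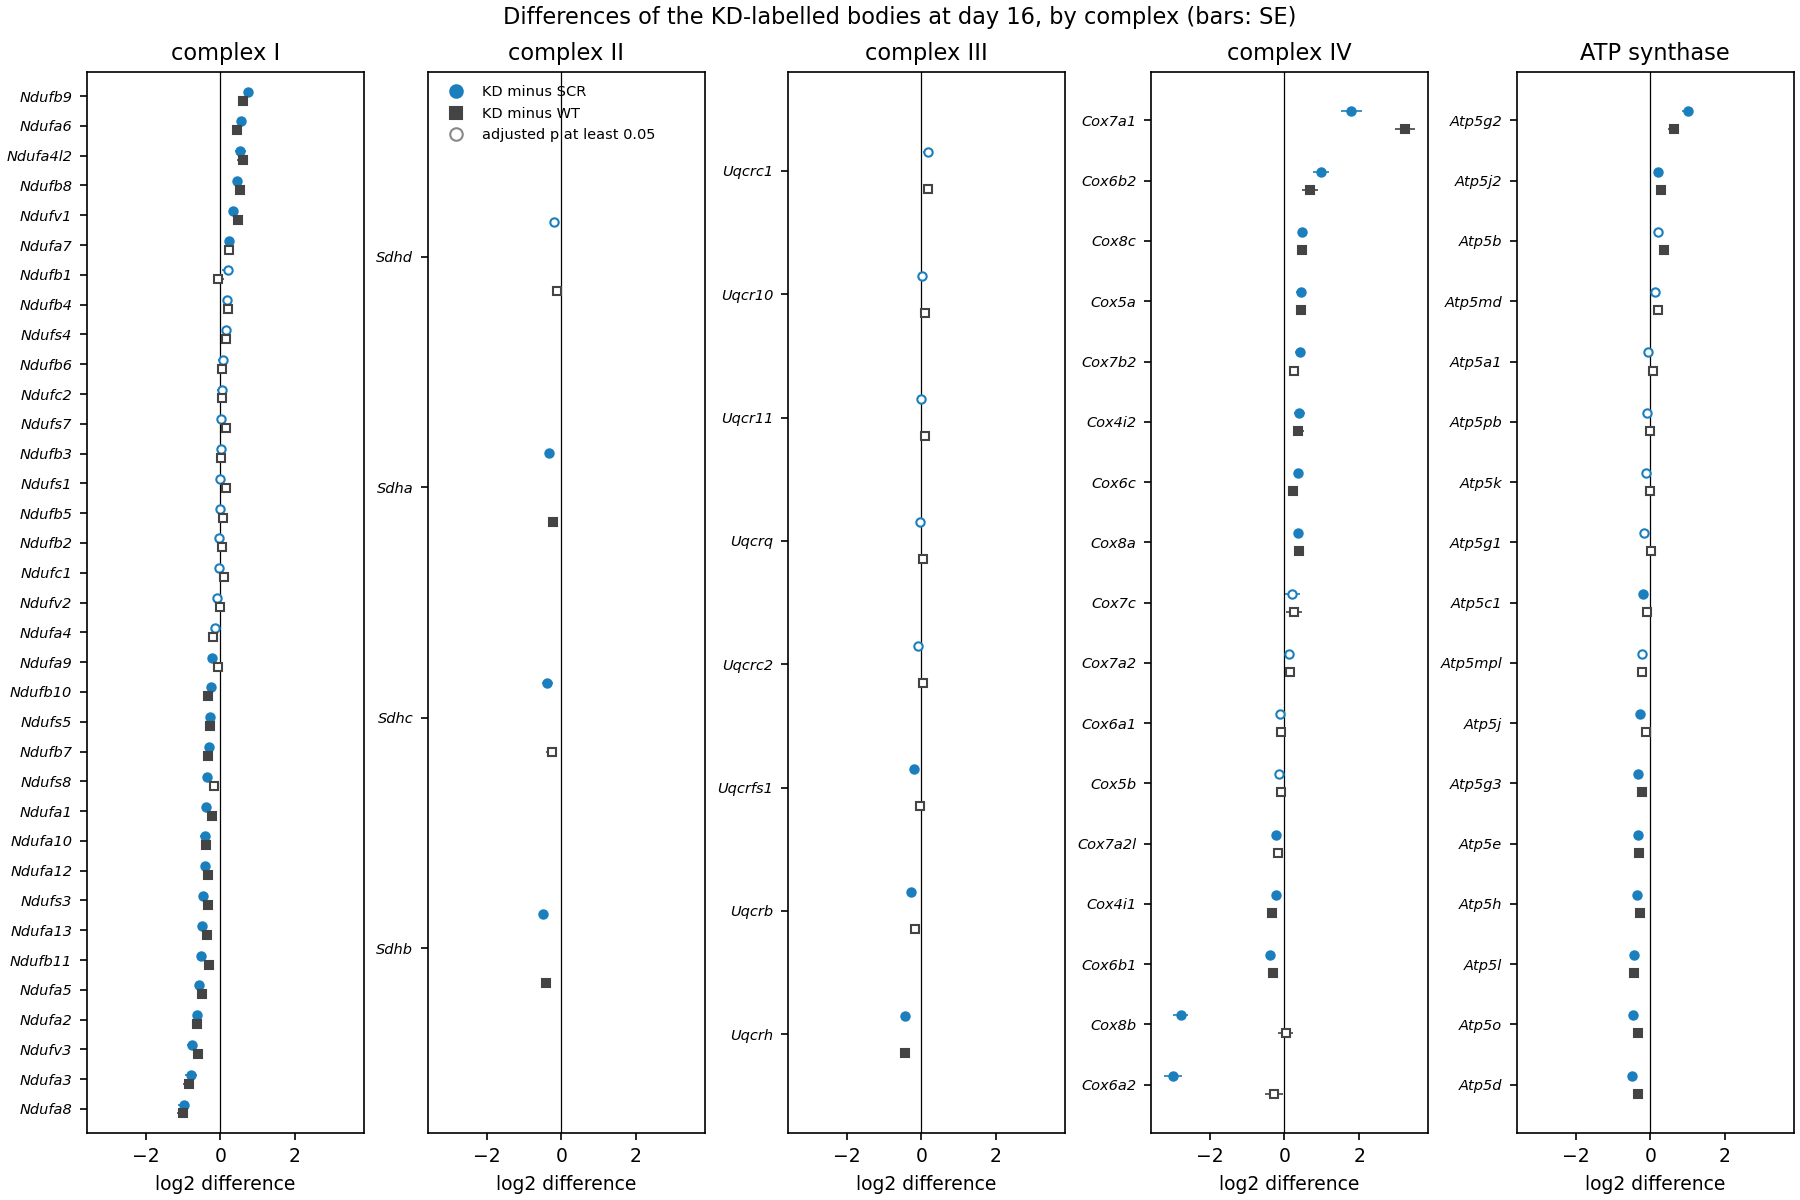
Log2 difference at day 16 of each gene, by complex, for KD minus SCR (circles) and KD minus WT (squares), with bars of 1 standard error from limma; open symbols have an adjusted p of 0.05 or more, and both contrasts share the KD-labelled arrays. Cox6a2 and Cox8b stand apart at -2.99 and -2.78 against SCR only, Cox7a1 at 1.79 and 3.23 against SCR and WT, and most others lie within 1 of 0.

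Of the 48 genes with several probe sets, 83 further probe sets could be set beside the chosen ones. For KD minus SCR at day 16, 22 of them had the opposite sign, for KD minus WT 23, and for the WT course 15.

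The other genes of the pathway, from lists chosen by function, are given by their counts. Beside each count at day 16 against SCR stand the 39.8% of all genes called higher and 26.8% lower, and beside each count over the WT course the 28.1% that rose and 38.1% that fell. Mitochondrial ribosomal proteins, which translate the subunits encoded in mitochondrial DNA, fell over the course in all lines: 57 of 76 fell and 5 rose in WT (median -0.54), 61 and 5 in SCR (-0.68) and 52 and 3 in the KD-labelled line (-0.39). Of all genes, 42.7% fell and 29.1% rose in SCR, and 19.1% fell and 19.1% rose in the KD-labelled line. At day 16, 39 were higher and 5 lower in the KD-labelled line than in SCR (median 0.29, beside 0.17 for all genes; 48 and 5 after centring, 36 and 8 after loess). Against WT 37 were higher and 9 lower, beside 34.6% and 26.1% of all genes. Mrpl15 averaged 11.47 in KD-labelled EBs and 10.11 in SCR, a difference of 1.35 (SE 0.09, limma adjusted p = 8.72e-16), and Mrpl1 and Mrpl40 differed by 1.19 and 1.11. Over the WT course the ribosomal proteins had a median change of -0.54 and the general subunits of 0.12, or -0.62 and 0.03 after centring and -0.40 and 0.24 after loess.

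Assembly factors, which build the complexes and are not part of them, gave 17 higher and 11 lower of 46 (60.9% called, near the 66.6% of all genes; median 0.11; 19 and 10 after centring, 16 and 12 after loess) between KD-labelled and SCR EBs at day 16, and 7 rises and 26 falls over the WT course (median -0.44). Nubpl, which delivers iron-sulphur clusters to complex I, was higher in KD-labelled EBs by 2.36 (limma adjusted p = 1.71e-18) and Ndufaf6, another complex I factor, by 1.45. Cox20, a chaperone of the mitochondrially encoded subunit 2 of complex IV, was lower by -1.83 (adjusted p = 3.01e-12). Of 6 electron carriers and related subunits, 2 were higher and 1 lower (median -0.04; 0.05 after centring), namely Cyct, the testis cytochrome c, by 2.93, Cyc1, the cytochrome c1 of complex III, by 0.96, and Etfdh by -0.68. Of 12 citric acid cycle genes 2 were higher and 6 lower (66.7% called; median -0.19). Idh3a (0.86) and Idh3g (0.82), subunits of isocitrate dehydrogenase, were higher and Cs, citrate synthase, lower (-0.76).

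Regulators of mitochondrial biogenesis gave 9 higher and 2 lower of 13 (median 0.52) against SCR at day 16, and 8 and 3 after loess. The lower genes were Ppargc1a, the coactivator of oxidative metabolism in muscle, liver and brown fat, and Esrrg, an estrogen-related receptor of oxidative tissues. Ppargc1a averaged 2.92 in KD-labelled EBs and 7.80 in SCR, a difference of -4.88 (SE 0.26, limma adjusted p = 3.54e-18), and it rose by 2.95 over the WT course. Esrrg differed by -2.62 (adjusted p = 2.03e-13). Pprc1, a related coactivator, and Nrf1, the factor whose letters stand in the Cox6a1 promoter, were higher by 1.58 and 1.52, and over the WT course Nrf1 fell by 1.66. Nrf1 is named after its values were seen. Over the WT course 10 of the 13 regulators fell and 2 rose.

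**Figure D5:**
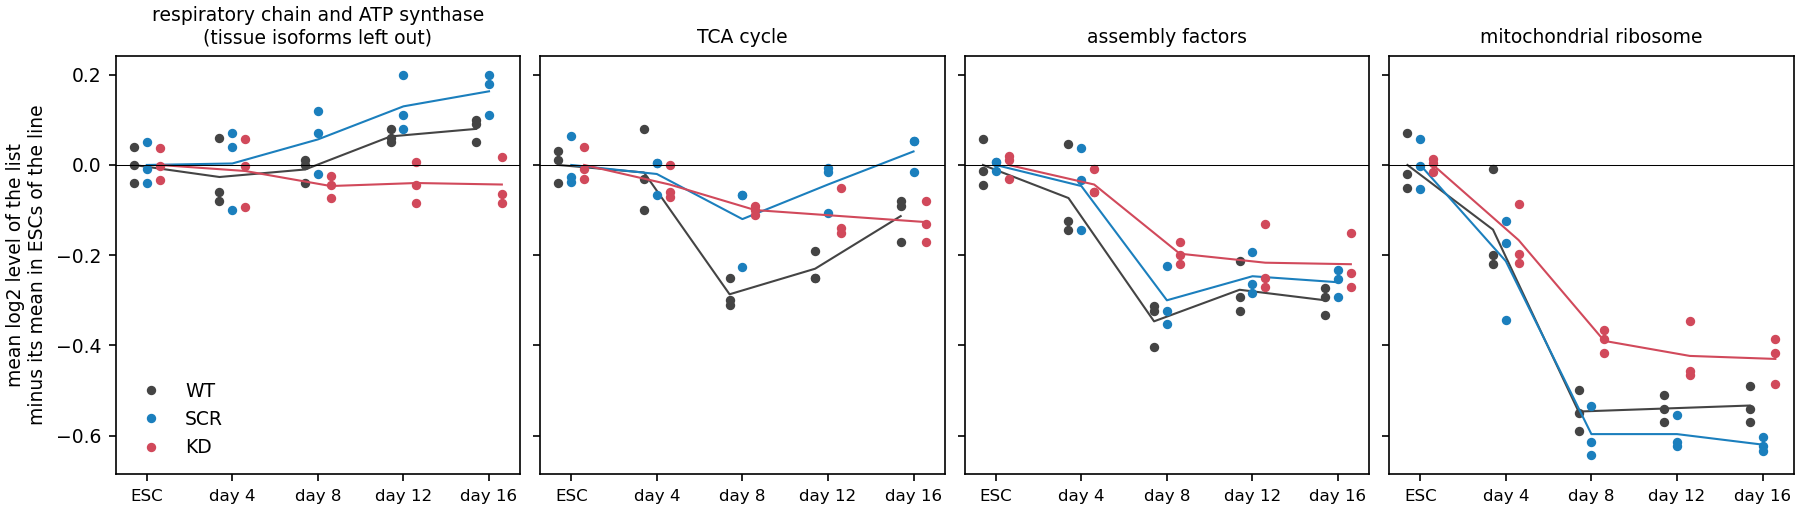
Mean log2 level, relative to the mean of the same line's ESCs, of the 73 general subunits, the citric acid cycle genes, the assembly factors and the mitochondrial ribosomal proteins (panels) by stage; points are arrays and lines are means of 3 arrays per line. The general subunits end at 11.23, 11.28 and 11.16 in WT, SCR and the KD-labelled line, close to their ESC levels, while the ribosomal proteins decline in all 3 lines.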

How the data were processed

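RNA of 45 samples was hybridised to Affymetrix Mouse 430 2.0 arrays. The authors deposited log2 values of 45037 probe sets. The submitters' processing notes name RMA, Partek 6.6 and Affymetrix Expression Console with no role or order, and the genome build is not given in the sources used here. Neither raw scans nor detection p-values were used, so which probe sets lie above background is not known, and levels are compared only within a gene. Groups follow the titles.

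The platform annotation gave the genes of the probe sets: 34945 named 1 gene, 932 several and 9160 none, and 204 whose gene is missing from the reference kept their symbol. The brightest probe set stood for each of 18193 genes, with no filter on level. A mean for each of the 15 groups was fitted to all arrays in limma 3.58.1 (R 4.3.3), with 30 residual and 5.17 prior degrees of freedom, and the threshold was an adjusted p of 0.05 (Benjamini-Hochberg, over the 18193 genes of a comparison). SEs are limma's, SDs those of 3 arrays, whose number limits precision. Comparisons were lines within a stage, stages within a line, and the difference between lines in the change to day 16.

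The members, the lists and the rule for named genes were chosen with earlier results of these data known, and the promoter motifs after the values were seen. Named were the tissue isoforms and their general relatives, the subunit c and Sdh genes, and in complexes I, III, IV and ATP synthase the 2 largest called rises and falls of KD minus SCR at day 16 and of the WT course, with the 5 genes most like each muscle isoform, and at most 3 called genes from each list. Nrf1 was named beyond the 3 of its list, after its values were seen. Lists were counted, with no test of the list. The alternatives were median centring, cyclic loess, the mean of all probe sets of a gene, genes above the median level only, a fit on the compared groups only, the replicate number as a block, and leaving out each array. The procedure was tested on simulated data.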

Additional observations from a re-analysis of the deposited data

Results flagged for a closer look

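The change from ESCs to day 16 itself differed between the KD-labelled line and a control in the following genes (limma, adjusted p under 0.05 for the difference of changes). All values are log2, KD-labelled minus control, and both contrasts share the KD-labelled arrays.

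Against SCR, the difference of changes called 28 of the 81 genes. Among the isoforms it was -2.97 for Cox6a2, -2.93 for Cox8b and 1.78 for Cox6b2. Among general subunits of complex IV it was -0.48 for Cox4i1 and -0.58 for Cox6b1. In complex I it was -1.2 for Ndufa8, -0.74 for Ndufa3 and -0.33 for Ndufb11, in complex II -0.46 for Sdhd, and in complex III -0.76 for Uqcrh. In ATP synthase it was -0.59 for Atp5g1, 0.54 for Atp5g2, -0.37 for Atp5g3 and -0.5 for Atp5o.

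Against WT, the difference of changes called 30 of the 81 genes. Among the isoforms it was 2.7 for Cox7a1 and 1.57 for Cox6b2. Among general subunits of complex IV it was -0.57 for Cox4i1 and -0.54 for Cox6b1. In complex I it was -1.41 for Ndufa8, -0.94 for Ndufa3, 0.43 for Ndufa6, 0.33 for Ndufs1 and 0.51 for Ndufv1. It was -0.36 for Sdhd of complex II, and -0.92 for Uqcrh and -0.33 for Uqcrb of complex III. In ATP synthase it was -0.4 for Atp5g1, 0.75 for Atp5g2, -0.34 for Atp5g3, -0.34 for Atp5o and -0.37 for Atp5mpl.

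Several of these calls rest on single arrays or on the processing. For Uqcrb against WT the call was lost in 10 of the 12 fits that left out an array (range -0.41 to -0.22), all but those without the first or the second WT ESC array, and also after centring and with the mean of its probe sets. For Ndufb11 against SCR it was lost in 8 (range -0.43 to -0.29), all but those without the third SCR ESC array, the first SCR array of day 16 or the second KD-labelled array of either stage, and also after centring. For Atp5g2 against SCR it was lost in 6 (range 0.42 to 0.68), those without the third SCR ESC array, the first or the third SCR array of day 16, the first or second KD-labelled ESC array or the second KD-labelled array of day 16, and also after loess. For Atp5mpl against WT it was lost in 4, those without the third WT array of either stage, the third KD-labelled ESC array or the first KD-labelled array of day 16, and after centring. For Sdhd against WT it was lost in 3, those without the third WT array of either stage or the third KD-labelled array of day 16, and after centring. The Atp5g1, Ndufs1 and Atp5o calls against WT were each lost in 1, without the first WT, the second WT and the third KD-labelled array of day 16, and that of Ndufs1 also after loess. With the mean of all probe sets of a gene, the calls of Atp5o and Sdhd against both controls and of Ndufv1 against WT were lost, and Atp5o against WT turned to 0.06. Fitting only the compared groups lost the calls of Uqcrb, Atp5mpl, Sdhd, Ndufs1 and Atp5o against WT and of Ndufb11 and Atp5g2 against SCR.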

How the results depend on the processing

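The number of arrays limits every value, and 336 single-gene values, 164 of them called, were recomputed under the alternatives. Where only genes above the median level were fitted, the values of Cox8b, Cox4i2, Cox7b2 and Ndufa4l2, which lie below it, were not recomputed. Outside the left-out arrays, 1968 recomputations lost 79 calls, gained 64 and reversed 9. With the mean of all probe sets of a gene, KD minus SCR at day 16 turned to 0.03 for Sdha, KD minus WT to 0.11 for Sdha and -0.21 for Atp5g1, the change to day 16 to -0.22 (WT) and -0.002 (SCR) for Atp5j2, 0.19 (SCR) for Atp5g1 and 0.02 (KD-labelled) for Atp5o, and the difference of changes from WT to 0.06 for Atp5o. Cyclic loess turned the SCR change of Cox7a2 to 0.18. The cause of these turns was not tested.

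Counts of called genes of the set moved by at most 1.5 times after centring and loess. Fitting only the compared groups, which uses fewer arrays, gave 9 in place of 19 for KD minus SCR in ESCs, 21 in place of 32 at day 4, 6 in place of 18 for KD minus WT in ESCs, and 0, 0, 2 and 3 in place of 4, 2, 5 and 6 for SCR minus WT in ESCs and at days 4, 8 and 12. With the mean of probe sets SCR minus WT at day 4 was 0 in place of 2.

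Leaving out each array in turn gave 2472 gene values, of which 104 lost a call, 31 gained one and 0 reversed. Called genes of the set then ranged from 41 to 49 for KD minus SCR and 36 to 39 for KD minus WT at day 16, from 29 to 37, 38 to 48 and 28 to 30 for the WT, SCR and KD-labelled courses, and from 23 to 31 and 26 to 32 for the differences of changes from SCR and WT. SCR minus WT, with few calls, ranged from 3 to 11 in ESCs (9 without the second WT array, 11 without the third SCR array), 0 to 2 at day 4 (0 without the third array of either line, 1 without the first WT or the second SCR array), 2 to 6 at day 8 (2 without the third SCR array, 3 without the first WT or the second SCR array) and 3 to 7 at day 12 (3 without the first or the third WT array or the first SCR array).

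Replicate numbers are shared by the lines but nothing in the labels says that they pair the arrays. After the group mean of each gene was subtracted, same-numbered arrays of the compared groups correlated between -0.303 and 0.477 over 27 comparisons. In 3 of these comparisons every array correlated best with its own number. With the replicate number as a block, KD minus SCR in ESCs gave 20 called genes against 19, KD minus WT in ESCs 20 against 18, and KD minus SCR at day 16 51 against 51.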
